A study of Mus musculus with 9 samples.

Results

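Liver sinusoidal endothelial cells remove macromolecules and particles from blood with a set of surface receptors that are taken up into clathrin-coated vesicles and carried to endosomes and lysosomes. The rows of 8 genes of the count table are described here: *Stab1*, *Stab2*, *Mrc1*, *Lyve1*, *Fcgr2b*, *Cd36*, *Clec4g* and *Scarb1*; the table holds 27998 genes. They were chosen by name, as receptors known from the liver sinusoid, with earlier results of these data known. *Stab1* and *Stab2* encode the stabilins, class H scavenger receptors, of which stabilin-2 takes up hyaluronan. *Mrc1* encodes the mannose receptor, *Lyve1* a hyaluronan receptor and *Fcgr2b* the inhibitory Fc gamma receptor that clears small immune complexes. *Clec4g* (LSECtin) encodes a C-type lectin of sinusoidal endothelium. *Cd36* and *Scarb1* encode class B scavenger receptors, the first a receptor for long-chain fatty acids and oxidised lipoproteins, the second (SR-BI) a receptor for high-density lipoprotein.

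The series asked how the liver's cells change when active YAP, the coactivator at the end of the Hippo pathway, is switched on in hepatocytes. C57BL/6 mice that all carried ROSA26-rtTA-IRES-EGFP gave 9 libraries, 1 per mouse. WT mice (2 libraries) had no tetYAP and ate doxycycline food for 7 days. YAP3d mice (4 libraries) and YAP7d mice (3 libraries) carried tetYAP and ate it for 3 and 7 days. The study's methods give Alb-Cre, whose promoter is active in hepatocytes, as the switch for rtTA, so neither endothelial cells nor macrophages were the cells meant to express the transgene. Whether the WT mice carried Alb-Cre is not given in the sources used here.

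After a filter on cells with few genes, 8527 of 8562 cells were clustered and named after markers that held none of the 8 genes. Classes are called by the type they resemble. Endothelial-like cells numbered 276 and 502 in WT, 51 to 771 in YAP3d, and 24, 23 and 64 in YAP7d, and all 12 endothelial markers were detected in them in every library. Macrophage-like cells numbered 31 and 67, then 12 to 83, then 149, 209 and 422. Libraries held 1288940 to 25056881 UMIs (unique molecular identifiers, which count captured transcripts), and the median endothelial-like cell held 2324 to 4772 UMIs in WT and YAP3d and 7403.5 to 13759.5 in YAP7d. Levels are therefore given in CPM, a gene's share of all UMIs of its class in a library, on the scale where 10000 CPM make up 1% of the UMIs. A count of 3, the smallest taken as above 0, stood for 3.55 CPM in the endothelial-like cells of WT replicate 1. Hepatocyte-like cells numbered 2 and 1 in WT, 9 to 18 in YAP3d and 28, 22 and 11 in YAP7d. They held 12976 and 1510 UMIs in WT and 126135 to 204590 in YAP7d. *Yap1*, the gene meant to be induced, had 1 and 0 counts in them in WT, 1 to 6 in YAP3d and 15, 11 and 19 in YAP7d. These counts rest on unequal numbers of cells and UMIs, so they do not show induction, which was not tested. Over all cells of a library *Yap1* lay at 15.65 and 11.04 CPM in WT, 5.29 to 12.91 in YAP3d and 3.85, 5.53 and 1.52 in YAP7d. *Gm10709* divided the libraries. Over the summed endothelial-, macrophage-, monocyte-, B-cell- and T-cell-like cells it lay at 3.81 and 10.4 CPM in WT. It lay at 380.1, 432, 3.83 and 10.8 CPM in YAP3d and at 368, 388 and 622 CPM in YAP7d. Across WT and YAP7d it moved with the group, so a batch marked by it and the group cannot be told apart there.

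All 8 genes are protein coding in the RefSeq annotation of GRCm38.p6. *Clec4g* lies at chr8:3707066-3720695, *Fcgr2b* at chr1:170960558-170976071, *Mrc1* at chr2:14229414-14332023, *Stab1* at chr14:31139017-31168651 and *Stab2* at chr10:86841194-87008038. *Lyve1* lies at chr7:110850607-110862953, *Cd36* at chr5:17781690-17888959 and *Scarb1* at chr5:125277087-125341094. Gene models that overlap 5 of them were annotated: *Nt5dc2* and *Gm52148* at *Stab1*, the pseudogene *Gm16270* and *Gm16271* at *Stab2*, *Mir511* at *Mrc1*, *Gm16553* at *Clec4g* and *Gm32701* at *Scarb1*. RefSeq promoters were given for 6 of the 8 genes. The 150 bases before the start are shown for the 3 genes with the largest fall below, *Clec4g* (chr8:3720652-3720801, minus strand), *Fcgr2b* (chr1:170976072-170976221, minus strand) and *Mrc1* (chr2:14229264-14229413, plus strand), beside *Cd36* (chr5:17835897-17836046, minus strand), which did not pass the test. For *Clec4g* and *Cd36* the start used by the table lies inside the annotated gene. Capitals mark matches to the ETS core AGGAAG or the MAF core TGCTGA, on either strand.
Clec4g: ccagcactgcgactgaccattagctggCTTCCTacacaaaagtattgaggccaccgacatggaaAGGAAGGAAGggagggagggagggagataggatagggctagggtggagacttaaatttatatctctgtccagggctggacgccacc
Fcgr2b: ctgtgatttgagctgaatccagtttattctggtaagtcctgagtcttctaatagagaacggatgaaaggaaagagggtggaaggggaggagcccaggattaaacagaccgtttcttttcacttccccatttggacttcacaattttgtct
Mrc1: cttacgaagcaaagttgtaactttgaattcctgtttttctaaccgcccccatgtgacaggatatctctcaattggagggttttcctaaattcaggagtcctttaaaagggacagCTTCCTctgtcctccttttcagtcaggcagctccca
Cd36: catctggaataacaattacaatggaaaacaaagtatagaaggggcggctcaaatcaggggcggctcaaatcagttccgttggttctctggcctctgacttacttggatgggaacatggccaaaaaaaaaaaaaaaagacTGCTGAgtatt
In the 250 bases before the start, *Clec4g* held 3 ETS matches, at positions -123 to -118 on the other strand and, overlapping each other, at -86 to -81 and -82 to -77. *Mrc1* also held 3, the nearest at -36 to -31, while *Fcgr2b* held no match to any motif searched. The *Cd36* promoter held 1 MAF match at -11 to -6, and *Stab1* held 1 MAF and 1 ETS match. *Stab2* held 1 ETS match. Neither the TEAD core GGAATG nor the GATA core AGATAA was found in any of the 6. Of 32851 promoters of this length, 29.5% held AGGAAG, 16.1% TGCTGA, 12.6% GGAATG and 9.99% AGATAA. These matches are letters in a window and were not tested for use.

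In WT livers 7 of the 8 genes had their highest mean level in endothelial-like cells, as the heatmap of class means shows. *Clec4g* stood there at 5712 ± 1235 CPM (SD, n = 2), against 133 ± 34.4 in macrophage-like and 87.2 ± 62.2 in T-cell-like cells. *Mrc1* stood above its other levels in both classes, 1172 ± 379 in endothelial-like and 439.9 ± 133 CPM in macrophage-like cells, against 26.7 ± 0.0594 in monocyte-like cells. *Fcgr2b* followed its endothelial level of 2371 ± 97.0 with 184 ± 90.4 in monocyte-like, 86.9 ± 43.3 in B-cell-like, 84.3 ± 1.18 in cDC1-like (type 1 dendritic) and 83.3 ± 56.2 in macrophage-like cells, among classes with 10 cells in both WT libraries. The last 3 of these did not differ beyond their spread. In the 1 WT library with enough of them, unnamed cells had 184 and cDC2-like (type 2 dendritic) cells 159 CPM.

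The class B receptors had a wider pattern. *Cd36* lay at 518 ± 53.8 CPM in endothelial-like, 129 ± 37.6 in cDC1-like and 106 ± 3.64 in macrophage-like cells of WT, and at 220.1 in the unnamed cells of 1 WT library. *Scarb1* lay at 98.8 in pDC-like (plasmacytoid dendritic) cells, which 1 WT library held in sufficient number, at 96.7 ± 29.0 in macrophage-like, 83.7 ± 5.33 in monocyte-like and 80.8 ± 45.8 in endothelial-like cells. It followed at 67.3 in cDC2-like cells of 1 library and 59.5 ± 18.6 in cDC1-like cells, and the steps between macrophage-, monocyte- and endothelial-like cells were smaller than the spread. In T-cell-like cells it stood at 8.32 ± 5.33. Transcripts of each endothelial gene were also counted in T- and B-cell-like cells, which are not known for them apart from *Fcgr2b* in B cells. Their joint level reached at most 3.21% of the endothelial level in the same library for *Clec4g*, and 14.6% for *Scarb1*. It serves below as the background measured in the same libraries, and its source was not tested.

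**Figure D1:**
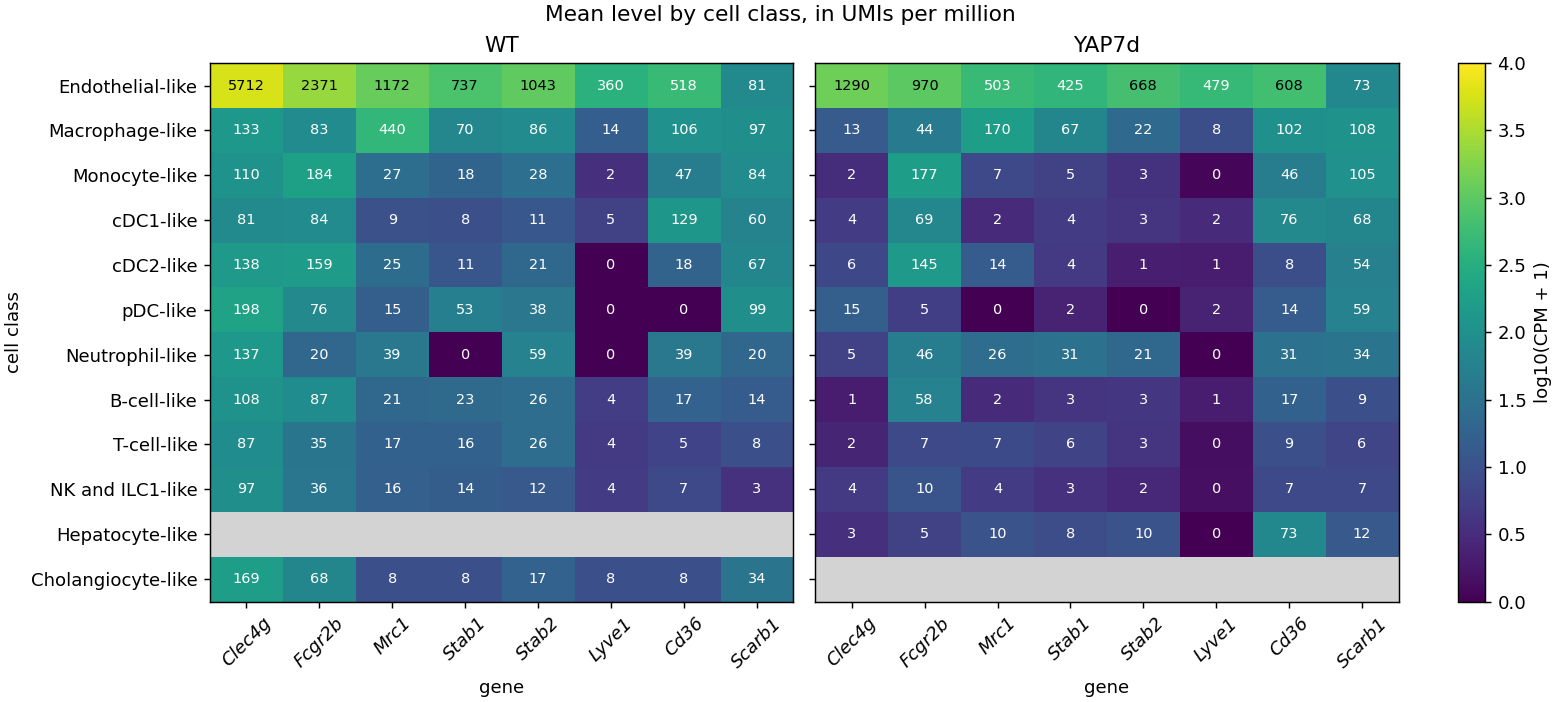
Mean CPM of each gene (columns) in each class (rows) over the WT libraries (left) and the YAP7d libraries (right) with at least 10 cells of the class, coloured by log10(CPM + 1) with the mean printed in the cell. Grey rows had under 10 cells in every library. The endothelial-like row is the highest for all genes but *Scarb1* in WT, and its *Clec4g* mean is 5712 CPM in WT and 1290.0 CPM in YAP7d.

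Between WT and YAP7d, 5 of the 8 genes fell in endothelial-like cells and none rose: *Clec4g*, *Fcgr2b*, *Mrc1*, *Stab1* and *Stab2*. Their mean levels were 4.43, 2.44, 2.33, 1.74 and 1.56 times lower in YAP7d than in WT, both after 7 days of doxycycline. *Lyve1*, *Cd36* and *Scarb1* did not pass the test. Of 7532 genes tested in these cells, 1360 passed it in either direction (18.1%) and 618 were lower (8.2%). The median log2 difference was -0.67 over the 8 genes and -0.02 over all genes.

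*Clec4g*, the lectin, stood at 4838 and 6585 CPM in the WT libraries, at 5422, 4836, 4320.4 and 5350.2 in YAP3d and at 1468, 1317 and 1086 in YAP7d. Every YAP7d library lay below every other library, and WT and YAP3d overlapped. The fitted log2 difference between YAP7d and WT was -2.11 ± 0.165 (SE; adjusted p = 3.0e-06, edgeR quasi-likelihood test). The Fc receptor gene *Fcgr2b* had 2302 and 2439 CPM in WT, 1873, 1864, 1764 and 2264 in YAP3d, and 975, 897 and 1038 in YAP7d. It showed the same separation of YAP7d from the rest, and the YAP3d libraries all lay below the WT libraries. Its log2 difference between YAP7d and WT was -1.23 ± 0.157 (adjusted p = 8.2e-05).

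*Mrc1*, the mannose receptor gene, was counted at 1440.1 and 904 CPM in WT, 1287, 1112, 1197 and 929 in YAP3d, and 574, 604 and 329.9 in YAP7d. The WT libraries were far apart, with all YAP3d libraries between them, and the YAP7d libraries lay below both groups. The log2 difference from WT was -1.21 ± 0.228 (adjusted p = 0.00167). The stabilin gene *Stab1* had 777 and 697 CPM in WT, 680.0, 858, 745 and 839.7 in YAP3d, and 438, 469 and 367 in YAP7d. Its YAP7d levels again lay below all others, with a log2 difference of -0.76 ± 0.163 (adjusted p = 0.00432). *Stab2*, which encodes the hyaluronan-clearing stabilin, had 1150.4 and 936 CPM in WT, 1072, 1057, 893 and 1134 in YAP3d, and 555, 726 and 723 in YAP7d. Its YAP7d libraries too lay below all others, with WT and YAP3d overlapping, and its log2 difference was -0.58 ± 0.176 (adjusted p = 0.0321). This call was lost without WT replicate 1 (-0.42, adjusted p = 0.259), YAP3d replicate 1 (adjusted p = 0.0508), YAP7d replicate 1 (adjusted p = 0.0952) or YAP7d replicate 2 (adjusted p = 0.0639). The calls of the other 4 genes held without any 1 library.

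*Lyve1*, whose protein binds the same ligand as stabilin-2, had 351 and 369 CPM in WT, 531, 535, 438 and 252 in YAP3d, and 474, 559 and 402 in YAP7d. All YAP7d libraries lay above WT and overlapped YAP3d, and the log2 difference from WT was 0.44 ± 0.248 (adjusted p = 0.244). *Cd36* had 480.0 and 556 CPM in WT, 652, 724, 569 and 454 in YAP3d, and 587, 582 and 654 in YAP7d. These levels were also above WT and overlapped YAP3d, at a log2 difference of 0.29 ± 0.188 (adjusted p = 0.318). *Scarb1* had 48.5 and 113 CPM in WT, 86.7, 120.0, 85.4 and 89.9 in YAP3d, and 49.7, 67.6 and 103 in YAP7d. The groups overlapped, and the SE of 0.350 around a log2 difference of -0.0011 (adjusted p = 0.999995) leaves changes of that size in either direction undetectable at this depth, since YAP7d held 11, 15 and 92 counts.

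**Figure D2:**
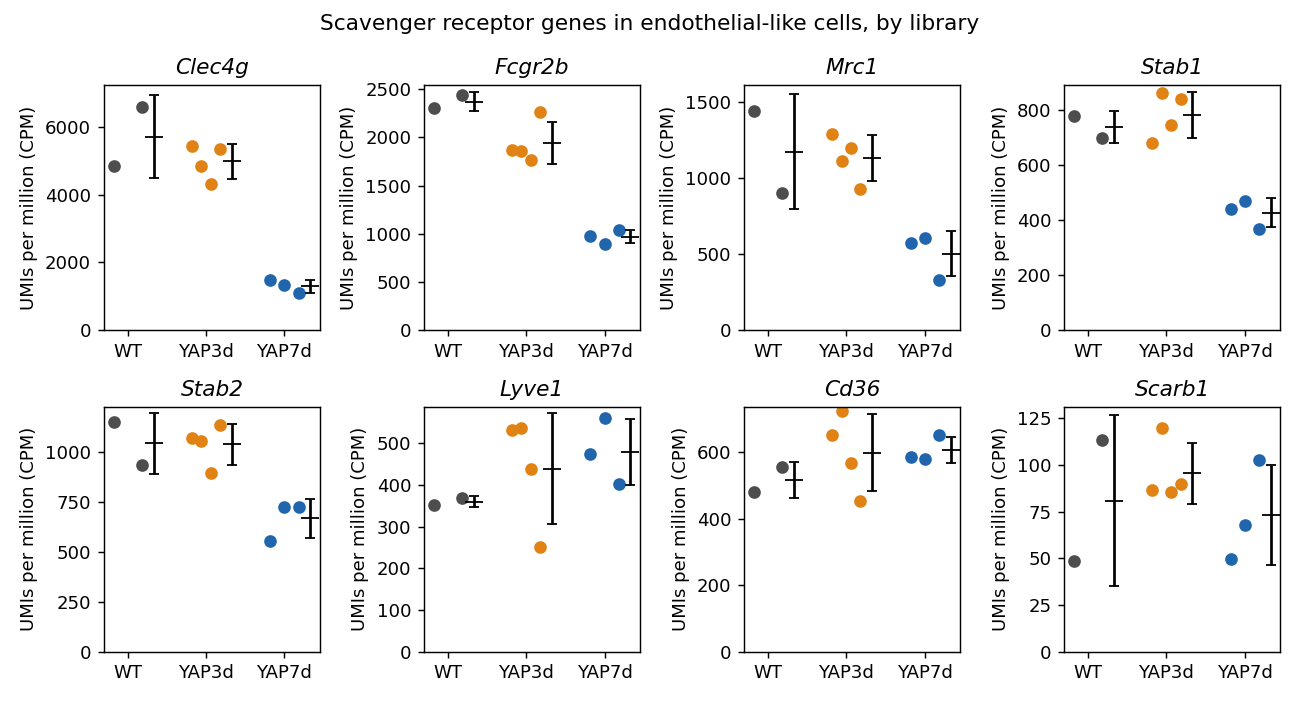
Level of each gene in endothelial-like cells, in CPM, with 1 point per library, by group, and the mean with its SD beside the points. The YAP7d points of Clec4g, Fcgr2b, Mrc1, Stab1 and Stab2 lie below all WT and YAP3d points, while those of Lyve1, Cd36 and Scarb1 lie among them or above WT.

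At 3 days of induction none of the 8 genes passed the test against WT. Of 7532 genes, 0% did (0 genes by edgeR or by DESeq2, with 150 at an unadjusted p under 0.05). The log2 differences of the 8 ran from -0.30 ± 0.148 for *Fcgr2b* to 0.22 ± 0.233 for *Lyve1* (every adjusted p = 0.9999). From 3 to 7 days the 5 genes that differed from WT were lower in YAP7d: *Clec4g* at -1.90 ± 0.148 on the log2 scale (adjusted p = 2.8e-06), *Mrc1* at -1.14 ± 0.203 (0.00121), *Fcgr2b* at -0.93 ± 0.138 (0.000257), *Stab1* at -0.83 ± 0.144 (0.000967) and *Stab2* at -0.56 ± 0.153 (0.0195). Both comparisons share the YAP7d libraries. In that comparison 16.9% of genes passed in either direction and 7.83% were lower, with a median of -0.70 over the 8 genes and -0.04 over all. The *Stab2* call was lost here without YAP3d replicate 1 or 4 or YAP7d replicate 1 or 2 (adjusted p = 0.0543, 0.0532, 0.0832 and 0.0511).

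Several measures moved with the endothelial result. With a term for *Gm10709* in the fit, where 235 of 7532 genes passed, 3 of the 5 genes called between YAP7d and WT passed, *Clec4g* at -2.17 ± 0.253, *Mrc1* at -1.38 ± 0.345 and *Fcgr2b* at -1.10 ± 0.238, while *Stab1* (-0.69 ± 0.248, adjusted p = 0.175) and *Stab2* (-0.62 ± 0.270, adjusted p = 0.269) did not pass. No WT library and every YAP7d library held *Gm10709* transcripts, so that term was estimated from the YAP3d libraries alone and carried over to the other groups. Among the libraries with *Gm10709* transcripts alone, the comparison of YAP7d with YAP3d called all 5 (and 513 of 4041 genes in all), with log2 differences of -1.95 for *Clec4g*, -1.25 for *Mrc1*, -0.88 for *Fcgr2b*, -0.81 for *Stab1* and -0.60 for *Stab2*. The 12 endothelial markers used for naming summed to 10278 and 10430.3 CPM in WT, 9455 to 10339 in YAP3d and 6318 to 7107 in YAP7d. Markers of macrophages summed to 231 to 454, 125 to 872 and 393 to 812 CPM, those of hepatocytes to 133 to 218, 205 to 318 and 104 to 149, and those of stellate cells and fibroblasts to 114 to 155, 125 to 250 and 22.6 to 40.6. Erythroid markers lay at 250.2 to 2145, 18.5 to 1872 and 9.03 to 18.04 CPM. The median mitochondrial share of an endothelial-like cell's UMIs was 3.89% and 3.04% in WT, 3.61% to 3.82% in YAP3d and 2.28%, 2.45% and 2.90% in YAP7d, so every YAP7d library lay below every other. The part of these measures in the falls was not tested.

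**Figure D3:**
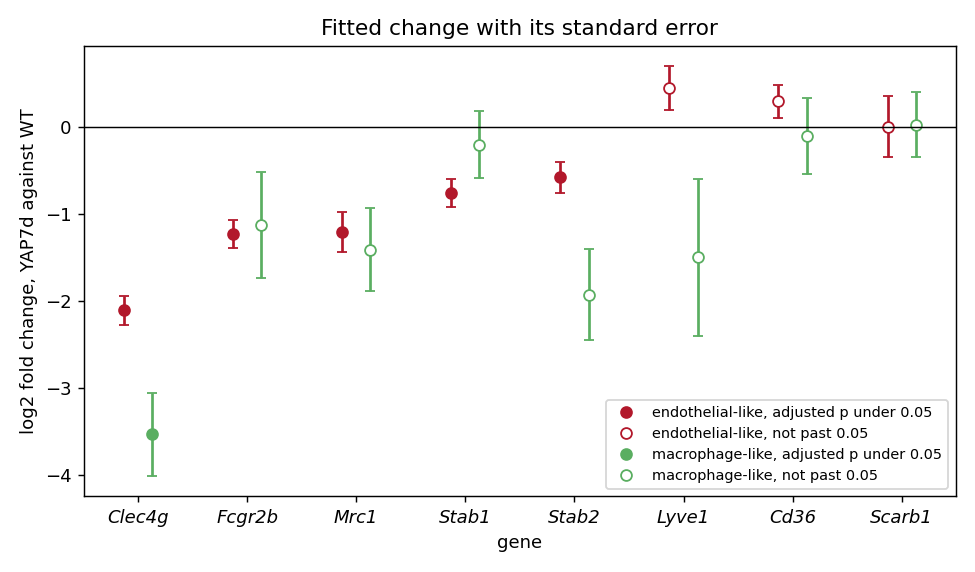
Fitted log2 difference between YAP7d and WT with its standard error, for endothelial-like (red) and macrophage-like (green) cells. Filled points have an adjusted p under 0.05. In endothelial-like cells 5 filled points lie below 0, from -2.11 for Clec4g to -0.58 for Stab2, and in macrophage-like cells only Clec4g is filled, at -3.53.

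Endothelial-like cells fell into 4 clusters. Cluster 4 had 5 of 6 periportal markers raised and cluster 5 had 4 of 6 pericentral markers raised. Cluster 3 had neither, and cluster 23 held 93 of the 111 YAP7d cells, 9 YAP3d cells and 0 of the WT cells. So cells of the same cluster could not be compared between WT and YAP7d. The mean of *Clec4g* was 4948, 4822 and 6309 CPM in clusters 3, 4 and 5 of WT, and 1099 ± 135 in cluster 23 of YAP7d. *Fcgr2b* had 1447, 2390.1 and 2540.1 against 953 ± 114, and *Mrc1* 749.9, 1205 and 1251 against 499 ± 154. *Stab1* and *Stab2* were different, since their WT means in cluster 3 (333 and 471 CPM) lay below those of cluster 23 (443 ± 70.8 and 695 ± 72.7), while those of clusters 4 and 5 (831 and 769.8 for *Stab1*, 975 and 1199 for *Stab2*) lay above.

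**Figure D4:**
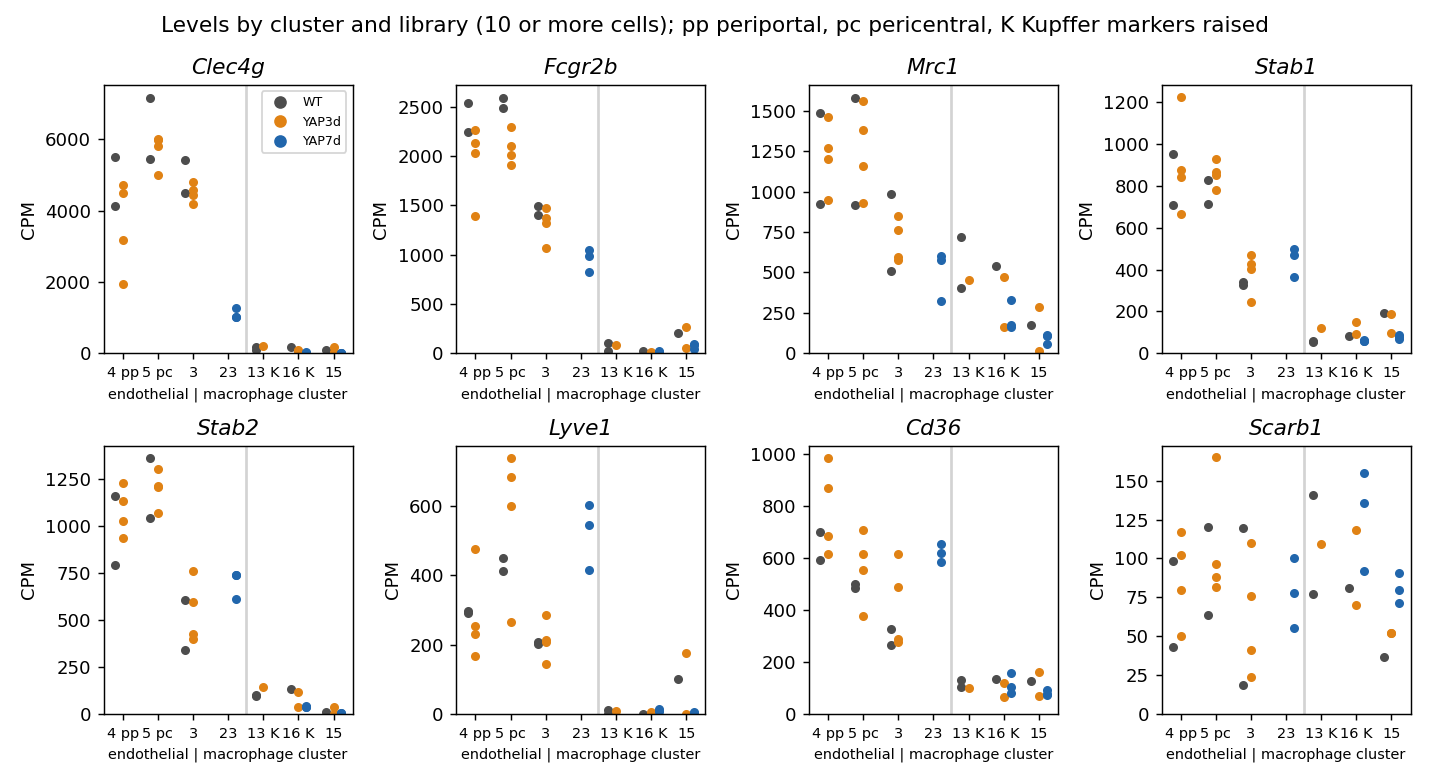
Level of each gene in CPM, with 1 point per library with at least 10 cells in the cluster, for the endothelial-like clusters 4 (periportal markers raised, pp), 5 (pericentral, pc), 3 and 23 and the macrophage-like clusters 13 and 16 (Kupffer markers raised, K) and 15. Of the YAP7d endothelial-like cells only those of cluster 23 are drawn, where Clec4g lies between 1019.8 and 1254 CPM and Lyve1 between 414 and 602 CPM. Clusters 3, 4 and 5 held 9, 6 and 3 YAP7d cells, too few to be drawn.

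Position along the sinusoid could be compared in the 6 WT and YAP3d libraries that held both the periportal-like and the pericentral-like cluster. *Lyve1* was lower in the periportal-like cluster of all 6, at -0.87 ± 0.743 on the log2 scale (SD, n = 6), and so was *Clec4g*, at -0.63 ± 0.501. *Cd36* went the other way in 5 of 6 libraries, at 0.46 ± 0.295. *Stab2* was higher there in 1 of 6 libraries, at a mean of -0.20 ± 0.133, *Scarb1* likewise in 1 of 6, at -0.35 ± 0.472, and *Stab1*, *Mrc1* and *Fcgr2b* were higher in 3 of 6. Both clusters were formed from these same cells, so the differences are a description.

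Cells with at least 2 UMIs of proliferation genes made up 8.70% and 21.7% of endothelial-like cells in WT, 20.1% to 29.4% in YAP3d and 75.0%, 82.6% and 92.2% in YAP7d, a share that depends on depth. Among these cells alone, where 606 of 4104 genes passed, *Clec4g* (-2.22), *Fcgr2b* (-1.28), *Mrc1* (-1.23) and *Stab1* (-0.89) were called between YAP7d and WT, and *Stab2* was not (-0.63, adjusted p = 0.0749). Without them, in cells with at most 1 such UMI, YAP7d held 6, 4 and 5 cells and 150 of 3834 genes passed. Of the 5 receptors, *Clec4g* (-1.52, adjusted p = 0.00504) and *Fcgr2b* (-1.11, adjusted p = 0.0109) were called, while *Mrc1* (-0.85, adjusted p = 0.113), *Stab1* (-0.60, adjusted p = 0.224) and *Stab2* (-0.44, adjusted p = 0.43) were not. Those 15 YAP7d cells held *Clec4g* at 2002 CPM (exact Poisson 95% interval 1723 to 2313, counting error only), against 6038 (5939.9 to 6137) in the 645 such WT cells. Their *Fcgr2b* stood at 1164 against 2457 CPM.

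The share of endothelial-like cells with a transcript was compared at equal depth. With each cell thinned to 2000 UMIs, which left out 180 WT, 159 YAP3d and 0 YAP7d cells, 99.6%, 99.2% and 75.2% of cells in WT, YAP3d and YAP7d held a *Clec4g* UMI (means over libraries). For *Mrc1* the means were 85.4%, 85.5% and 46.8%, for *Stab1* 71.9%, 74.2% and 45.1%, and for *Fcgr2b* 94.6%, 92.7% and 74.9%. *Stab2* moved less, from 83.1% and 78.2% to 75.3%, and *Cd36* stood at 59.0%, 62.8% and 59.0%. Before thinning the *Mrc1* share was 88.3% in WT and 90.0% in YAP7d, and that of *Clec4g* 97.9% and 93.2%. In T-cell-like cells, whose median depth was 4066 to 5930.5 UMIs, the thinned share of *Mrc1* was 3.52% in WT and 2.77% in YAP7d, and that of *Clec4g* 14.6% and 0.778%.

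Macrophage-like cells gave a thinner record, with 31 and 67 cells in WT. *Clec4g* was the only 1 of the 8 genes to pass the test between YAP7d and WT, where 1.58% of 6723 genes did. The libraries had 109 and 158 CPM in WT, 51.7, 68.0, 55.2 and 186 in YAP3d, and 17.4, 13.4 and 8.21 in YAP7d. YAP7d lay below all other libraries, at a log2 difference of -3.53 ± 0.477 from WT (adjusted p = 0.00303) and -3.04 ± 0.421 from YAP3d (adjusted p = 0.00283). Between YAP7d and YAP3d 0.268% of genes passed. T- and B-cell-like cells together held *Clec4g* at 51.4 and 133 CPM in WT, 8.70 to 172 in YAP3d and 1.42, 0 and 3.01 in YAP7d. With that level taken off each library, the log2 ratio of the group means went from -3.35 to -1.83. The call was lost without WT replicate 2 (-3.10, adjusted p = 0.457), and with a term for *Gm10709* the difference was -2.37 (adjusted p = 0.999). In both fits 0 genes passed in all.

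*Mrc1*, which many tissue macrophages express, had 534 and 346 CPM in macrophage-like cells of WT, 534, 116, 331 and 404 in YAP3d, and 152, 265 and 92.5 in YAP7d. All YAP7d libraries lay below WT, and YAP3d overlapped both. The log2 difference between YAP7d and WT was -1.41 ± 0.475 (adjusted p = 0.123), and taking off the lymphocyte level moved the ratio of means only from -1.37 to -1.36. *Stab2* had 98.0 and 73.0 CPM in WT, 17.2, 25.0, 63.1 and 112 in YAP3d, and 24.6, 26.5 and 15.9 in YAP7d, at -1.93 ± 0.521 (adjusted p = 0.065). Its WT and YAP7d libraries did not overlap either. Without YAP3d replicate 2, when 494 of 6532 genes passed in place of 106 of 6723, both genes did, *Mrc1* at -1.40 (adjusted p = 0.0227) and *Stab2* at -1.92 (adjusted p = 0.0115), and without YAP3d replicate 4 *Stab2* did (adjusted p = 0.0119, with 303 of 6484 genes). Without YAP3d replicate 2 the comparison with YAP3d also called *Mrc1*, *Lyve1* and *Stab2* (adjusted p = 0.0227, 0.0131 and 0.00649), among 417 of 6532 genes in place of 18 of 6723.

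The other 5 genes gave no separation between WT and YAP7d. *Stab1*, which macrophages also express, had 54.5 and 84.6 CPM in WT and 64.3, 71.0 and 66.1 in YAP7d, with 63.1 to 189 in YAP3d and a log2 difference of -0.21 ± 0.382 from WT (adjusted p = 0.833). *Cd36* had 109 and 104 in WT, 55.2 to 224 in YAP3d and 77.7, 139.8 and 87.3 in YAP7d (-0.11 ± 0.433, adjusted p = 0.938). *Scarb1* had 76.3 and 117, then 64.4 to 172, then 84.9, 133 and 106 CPM (0.02 ± 0.372, adjusted p = 0.99). *Fcgr2b* had 43.6 and 123, then 28.6 to 135, then 45.1, 18.4 and 68.3 CPM (-1.13 ± 0.609, adjusted p = 0.344). All of these overlapped, and *Lyve1* rested on 0 and 15 counts in WT, or 0 and 28.8 CPM, against 5.81, 11.5 and 7.06 CPM in YAP7d (-1.50 ± 0.899, adjusted p = 0.404). No gene passed between YAP3d and WT (0% of 6723, with 306 at an unadjusted p under 0.05 and 0 called by DESeq2). The median of the 8 between YAP7d and WT was -1.27, against 0.02 over all genes. Summed endothelial markers in these cells moved as well, from 643 and 659 CPM in WT and 207 to 702 in YAP3d to 135 to 199 in YAP7d, and their part was not tested.

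A set of 3 clusters made up the macrophage-like cells. Markers of Kupffer cells, the resident macrophages, were raised in cluster 13 (5 of 6) and cluster 16 (4 of 6) and in none of cluster 15 (0 of 6). Cluster 13 held 58 WT, 69 YAP3d and 0 YAP7d cells, cluster 16 held 26, 74 and 382, and cluster 15 held 14, 32 and 398. *Mrc1* in cluster 16 had 539 CPM in the 1 WT library with enough cells, 163 and 473 in YAP3d and a mean of 222 ± 90.6 in YAP7d, with a range of 163 to 327. In cluster 15 it had 173, a mean of 149 and 92.5 ± 32.9. *Fcgr2b* lay the other way, at 209 and 74.1 CPM in cluster 15 and 27.0 and 16.9 in cluster 16 (WT, YAP7d). Thinned to 2000 UMIs, 54.1% of macrophage-like cells in WT, 41.9% in YAP3d and 31.2% in YAP7d held an *Mrc1* UMI (unthinned 74.9%, 67.0% and 70.7%), at median depths of 1777 to 22144.5 UMIs.

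Whether the change from WT to YAP7d differed between both classes was tested as an interaction with the library as a block. None of the 8 genes passed, where 1.23% of 8481 genes did. On simulated data this test recovered 21.5% of 200 genes with a log2 difference of 2, so a gene that does not pass may still differ. For *Clec4g* the log2 difference in endothelial-like minus that in macrophage-like cells was 1.38 ± 0.428 (unadjusted p = 0.0023, adjusted p = 0.112), for *Stab2* it was 1.42 ± 0.467 (adjusted p = 0.144), and for *Lyve1* 1.999 ± 0.765 (adjusted p = 0.276). Without YAP3d replicate 2 *Clec4g* and *Stab2* passed (adjusted p = 0.0161 and 0.0281), and without YAP3d replicate 4 all 3 did (adjusted p = 0.0227, 0.0159 and 0.0154 for *Clec4g*, *Stab2* and *Lyve1*). The calls over all genes numbered 168 of 8386 and 204 of 8181 in these fits, and 104 of 8481 with every library. In WT macrophage-like cells *Clec4g* lay at 2.12 and 1.19 times its T- and B-cell-like level, and *Lyve1* rested on 0 and 15 counts. Taking that level off moved the macrophage-like log2 ratio of *Clec4g* from -3.35 to -1.83, a smaller fall than the endothelial-like one given above. The interaction was not tested with that level taken off.

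Monocyte-, B- and T-cell-like cells were the other classes tested between WT and YAP7d, and none of the 8 genes passed in them. In monocyte-like cells, where 7 of the genes could be tested and 0.114% of 6141 genes passed, *Fcgr2b* had 119.8 and 248 CPM in WT and 163, 178 and 189 in YAP7d (-0.18, adjusted p = 0.983). *Scarb1* had 79.9 and 87.4 there in WT and 111, 103 and 100.3 in YAP7d, against 4.55 and 12.1 in T-cell-like cells of WT. The YAP7d libraries all lay above WT, at a log2 difference of 0.30 (adjusted p = 0.888). B-cell-like cells, in which the receptor of *Fcgr2b* restrains antigen signalling, had it at 56.3 and 117 CPM in WT, 44.3 to 142 in YAP3d and 46.0, 73.2 and 56.0 in YAP7d (-0.70, adjusted p = 0.998). The groups overlapped, and 1 of 2233 genes (0.0448%) passed. In T-cell-like cells 0% of 6528 genes passed by edgeR, with 551 at an unadjusted p under 0.05 and 29 called by DESeq2. *Clec4g* was tested in all 3 classes. In monocyte-like cells its mean was 110 ± 43.1 CPM in WT and 2.38 ± 2.44 in YAP7d (SD). Its level in T- and B-cell-like cells is the background used above, whose source was not tested. *Clec4g* had a log2 difference of -5.86 in B-cell-like and -5.19 in T-cell-like cells, which did not pass (adjusted p = 0.194 and 0.202). Without YAP3d replicate 4 it passed in B-, T- and monocyte-like cells (adjusted p = 0.0118, 0.00133 and 0.000139), without YAP3d replicate 2 in monocyte-like cells (5.37e-05), and *Stab2* passed in T-cell-like cells without YAP3d replicate 4 (0.0481). Calls over all genes rose there as well, without YAP3d replicate 4 to 3 in B-, 18 in T- and 42 in monocyte-like cells, and without YAP3d replicate 2 to 49 in monocyte-like cells, from 1, 0, 7 and 7 with every library.

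Seen over the whole suspension, the levels moved further than within endothelial-like cells, which made up 53.0% and 35.5% of cells in WT, 11.5% to 38.6% in YAP3d and 4.01%, 4.99% and 3.49% in YAP7d. *Clec4g* over all cells had 2167 and 2175 CPM in WT, 364 to 1643 in YAP3d and 66.3, 78.8 and 44.6 in YAP7d. *Scarb1*, by contrast, had 37.0 and 63.0 CPM in WT and 59.3, 99.3 and 83.1 in YAP7d. In such a sum, fewer cells of a type and less RNA per cell cannot be told apart. Endothelial-like cells gave 95.5% and 98.5% of a library's *Clec4g* counts in WT and 85.8% to 89.0% in YAP7d. The source of the other receptors' transcripts shifted: macrophage-like cells gave 3.83% and 7.59% of *Mrc1* counts in WT and 70.7%, 82.5% and 70.4% in YAP7d. For *Stab1* their share went from 0.746% and 2.49% to between 57.4% and 62.3%, and for *Scarb1* from 9.86% and 13.2% to 56.0%, 84.0% and 48.4%. Monocyte-like cells gave 0.450% and 1.66% of *Fcgr2b* counts in WT and 27.2%, 14.9% and 40.7% in YAP7d, so this share differed widely between the YAP7d libraries. *Stab2* and *Lyve1* counts came mostly from endothelial-like cells also in YAP7d (67.6% to 75.4% and 80.0% to 88.2%).

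Genes that work with these receptors were taken from fixed lists and compared between YAP7d and WT in endothelial-like cells. Of 25 other scavenger and endocytic receptors, 7 could be tested, 4 of which were lower and none higher, where 8.2% of all genes were lower. They include *Pla2r1*, a relative of the mannose receptor (-2.99 ± 0.479, adjusted p = 0.00049), *Scarb2*, a lysosomal class B protein (-1.04 ± 0.229, adjusted p = 0.00505), and *Fcgrt*, the neonatal Fc receptor (-0.84 ± 0.194, adjusted p = 0.00714). Among 23 tested genes of endocytosis 5 were lower and none higher, also beside 8.2% of all genes. They include *Ehd3*, an endosomal ATPase (-1.94 ± 0.148, adjusted p = 3.0e-06), *Lamp2*, a lysosomal membrane protein (-1.10 ± 0.149, adjusted p = 0.00013), and *Cltc*, the clathrin heavy chain (-1.06 ± 0.197, adjusted p = 0.00146). The median log2 difference was -0.84 over the receptors and -0.32 over the endocytosis genes, beside -0.02 over all genes.

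Of 6 Fc gamma genes 4 were tested and 2 passed, beside 18.1% of all genes. *Fcgr3*, the activating receptor that macrophages carry, rose (2.33 ± 0.609, adjusted p = 0.0147), *Fcgrt* fell (-0.84), and *Inpp5d*, the phosphatase that *Fcgr2b* recruits, did not pass at -1.05, nor did *Fcer1g*, the chain that carries the signal of activating receptors, at 0.16. The rise of *Fcgr3* ran beside the summed macrophage markers given above, and their part was not tested. Of 15 other genes of sinusoidal endothelium, all tested, 12 were lower and none higher (median -0.99, with 8.2% of all genes lower), among them *Il6st*, the shared receptor chain of the interleukin-6 family (-2.28 ± 0.211), *Dnase1l3*, a secreted nuclease (-1.94 ± 0.185), and *Adam23* (-1.96 ± 0.193). Of 7 tested genes of continuous capillaries 3 passed, where 18.1% of all genes did: *Cd34* rose (3.03 ± 0.436, adjusted p = 0.000217), while *Aqp1* (-0.66) and *Ly6a* (-1.08) fell. Of 8 tested lipid partners of *Cd36* and *Scarb1* 2 passed, where 18.1% of all genes did, so the count stood near that background. The fatty acid binding protein gene *Fabp4* rose (1.44 ± 0.189), *Apoe* fell (-1.90 ± 0.240), and *Gpihbp1*, which holds lipoprotein lipase on capillaries, did not pass at -0.44. Of 20 proliferation genes 19 were tested and all 19 rose, where 18.1% of all genes passed in either direction, such as *Tk1* at 5.84, *Stmn1* at 3.48 and *Tyms* at 2.48.

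In macrophage-like cells, where 1.58% of all genes passed, fewer of these genes did. *Cd163*, the haemoglobin scavenger receptor of macrophages, fell (-1.74 ± 0.428, adjusted p = 0.0493) as 1 of 12 tested receptors, *Ehd3* fell as 1 of 22 endocytosis genes (-3.99 ± 0.422, adjusted p = 0.000195), and none of 6 Fc gamma genes passed. *Dnase1l3* (-3.50), *Gpr182* (-3.47) and *Bmp2* (-4.11), 3 of 8 sinusoidal genes, also fell, as did *Gpihbp1* (-2.59) among 11 lipid genes. The summed endothelial markers of these cells are given above, and their part in these falls was not tested. None of 4 capillary genes passed, and 7 of 20 proliferation genes rose, such as *Tk1* at 2.89. Between YAP3d and WT no gene of any list passed in either class.

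The genes whose levels over the 9 endothelial-like samples were most like each receptor were named by Pearson's r of log2 CPM among 3193 genes, as a description over libraries that also differ in group and depth. For *Clec4g* these were *Smco4* (0.994), *Cyp4b1* (0.993) and *Cpne2* (0.992), for *Mrc1* *F8* (0.989), *Bmpr2* (0.985) and *Lama4* (0.978), and for *Fcgr2b* *Car8* (0.982), *Crebbp* (0.981) and *Igfbp7* (0.980). *Stab1* ran closest to *Adgrf5* (0.964), *Dlc1* (0.963) and *Rgl1* (0.962), and *Stab2* to *Fbxw2* (0.9746), *Zfp36* (0.969) and *Btg2* (0.967). No gene came as close to the 3 receptors that did not pass: the best were *Scarb1* with *Lamtor1* (0.925), *Hyal2* (0.895) and *Plpp1* (0.888), *Lyve1* with *Tpm3* (0.912), *Bzw1* (0.880) and *Nostrin* (0.864), and *Cd36* with *Spred1* (0.878), *Tpm4* (0.860) and *Yaf2* (0.847). In macrophage-like cells, among 2620 genes, *Mrc1* ran with *Plxnb2* (0.985), *Igf1* (0.963) and *C6* (0.960), *Fcgr2b* with *Ier5* (0.918), *Il1b* (0.902) and *Ier3* (0.894), *Cd36* with *Hacd4* (0.890), *Cfp* (0.887) and *Rnf115* (0.884), and *Stab1* with *Eif1b* (0.849), *Cnpy2* (0.824) and *Nenf* (0.821).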

How the data were processed

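Cells of collagenase-treated livers were sequenced with 10x Chromium 3' kits (the labels name versions 2 and 3, and the study's methods give version 2 for the LSL livers, as all 9 are titled). The deposited table holds raw counts of UMIs per gene and cell, which the authors made with Cell Ranger on mm10 and analysed with Seurat 2. Per the submitters' notes no other step is given, and the strand setting is not given in the sources used here.

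Cells with under 200 genes were left out (35). Counts were scaled to 10000 per cell, and 2396 variable genes without the 8 receptors, 30 components and 15 neighbours gave 25 Leiden clusters (resolution 1, seed 0; scanpy 1.11.5, igraph 0.11.9). Clusters were named after 173 fixed markers (169 in the table) when at least 3 were raised, which left 22 cells unnamed. Scrublet called 60 doublets (0.704%), which were kept. Libraries shared 46 barcodes.

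Counts were summed per library and class (at least 10 cells), filtered with filterByExpr, scaled with TMM and fitted over the 3 groups by edgeR 4.0.16 in R 4.3.3, with its two-sided quasi-likelihood test. Benjamini-Hochberg adjustment ran over all genes tested, with a threshold of 0.05. Each library is 1 mouse. CPM are given with SD and fold changes with SE. On simulated data the fit recovered 59.5% of 200 genes changed by a log2 fold of 2 among 7075 genes for endothelial-like cells, and 48.5% among 6268 for macrophage-like cells. For the interaction it recovered 21.5% among 8053. Alternatives were DESeq2 1.42.0, other scaling, filters, clusterings and cell sets, a replicate block, a term for *Gm10709* (over 50 CPM) and leaving out each library.

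All 8 receptors were named whatever their change. So were, of each related list, the 3 genes with the lowest adjusted p in either class, and the 3 genes most correlated with each receptor among those with at least 50 CPM (prior count 2). Members and lists were chosen with earlier results of these data known.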

Additional observations from a re-analysis of the deposited data

Results flagged for a closer look

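In groups of 4 libraries, a value that lies far from the nearest other one (Dixon's limit at the 95% level) was looked for in the YAP3d levels of the 8 genes in both classes, 16 groups in all, of which 2 held one. Chance gives about 1 in 20. *Scarb1* in endothelial-like cells of YAP3d replicate 2 stood at 120.0 CPM (26 counts), beside 85.4 to 89.9 in the other YAP3d libraries. *Clec4g* in macrophage-like cells of YAP3d replicate 4 stood at 186 CPM, beside 51.7 to 68.0 in the others. T- and B-cell-like cells of the same library held *Clec4g* at 172 CPM, and their part in the value was not tested.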

How the results depend on the processing

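Over the 8 genes in endothelial-like and macrophage-like cells and their interaction, 1091 of 1250 fits kept the direction and the side of the threshold of the main fit, 32 lost a call, 23 gained one and 104 turned the sign, 0 of these with an adjusted p under 0.05. Sets of cells by proliferation genes and of libraries by *Gm10709* were chosen after seeing the data.

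In endothelial-like cells the calls between YAP7d and WT numbered 4 to 5 without 1 library, 3 with the *Gm10709* term (all genes 235, against 1360) and 2 without cycling cells, and those between YAP7d and YAP3d 4 to 5 without 1 library and 1 without cycling cells. *Scarb1*, at -0.0011, turned to 0.017 with DESeq2 size factors, 0.00045 at Leiden resolution 2, 0.059 with at least 500 genes per cell and at most 10% mitochondrial counts, 0.24 in cycling cells and 0.023 without doublets, and ran from -0.49 to 0.79 without 1 library. With the *Gm10709* term *Cd36* turned to -0.13 and *Lyve1* to -0.20.

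In macrophage-like cells the 1 call between YAP7d and WT became 2 with DESeq2 (all genes 182, against 106), 3 without a filter (515), 3 with only the groups compared (502), 3 with the replicate block (307) and 0 with the *Gm10709* term (all genes 0), without cycling cells (all genes 1 of 1603) or in clusters without raised Kupffer markers (21), and 0 to 3 without 1 library. Between YAP7d and YAP3d it became 3 without a filter, 0 with the *Gm10709* term, in libraries with *Gm10709*, in cycling cells and without them, and 1 to 4 without 1 library. The sign turned for *Scarb1* (DESeq2 size factors -0.00018, resolution 2 -0.041, cycling cells -0.49, replicate block -0.047, without doublets -0.0016), *Cd36* (resolution 0.5 0.069, no filter 0.038, Kupffer clusters 0.034, replicate block 0.015, without cycling cells 0.52 and 0.54 with at least 10 and 4 cells), *Stab1* (0.014 in Kupffer clusters, 0.0087 and 0.044 without cycling cells, 0.29 less lymphocyte background), *Fcgr2b* (0.44 with the term, 0.15 and 0.22 without cycling cells) and *Stab2* (0.15 with the term). Without 1 library *Scarb1* ran from -0.14 to 0.53, *Fcgr2b* from -1.71 to 0.10, *Lyve1* from -1.85 to 6.96 (WT replicate 1 held 0 counts), *Stab1* from -0.35 to 0.33 and *Cd36* from -0.35 to 0.062. The interaction called 3 genes with only the groups compared and 0 to 3 without 1 library, with *Lyve1* from -6.13 to 2.36.

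In B-cell-like cells 1 gene was called without a filter, with only the groups compared and with the replicate block (0 to 1 without 1 library), in monocyte-like cells 2, 1 and 1 (0 to 1) and in T-cell-like cells 3, 1 and 3 (0 to 2). Replicate numbers do not pair the mice: same-numbered libraries correlated at -0.17 to 0.13, and the block lost *Stab2* in endothelial-like cells (adjusted p = 0.0606). Without thinning, shares of cells with a UMI turned to a gain in YAP7d over WT of 24.9 percentage points for *Cd36*, 3.11 for *Fcgr2b*, 1.70 for *Mrc1*, 21.3 for *Scarb1*, 7.48 for *Stab1* and 11.1 for *Stab2* in endothelial-like cells, and of 23.5 for *Cd36* and 3.87 for *Lyve1* in macrophage-like cells. Causes of these changes were not tested. Leaving out cycling cells with at least 10 cells per library could not be run for YAP7d endothelial-like cells, nor the replicate block or *Gm10709* term for the interaction. WT had 2 libraries and YAP7d 111 endothelial-like cells, which limits precision.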
